A study of Bos taurus with 10 samples.

Results

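Genes of mitochondrial protein import, of the voltage-dependent anion channels and of the SLC25 carrier family were compared between in vitro matured (IVM) and immature bovine oocytes. The members were the probe sets whose single gene symbol begins with TIMM, TOMM, VDAC, GRPEL or SLC25A followed by a number, or is SAMM50, PMPCA, PMPCB, PAM16 or DNAJC19. This rule found 74 of the 24016 probe sets tested, standing for 53 of 9155 named genes: 31 probe sets of 23 import genes, 4 probe sets of 3 channel genes and 39 probe sets of 27 carrier genes. The rule reads gene symbols and no measured value.

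The study collected oocytes of Bos taurus from follicles of 3 to 8 mm on abattoir ovaries. The 5 IVM pools were denuded after 24 h of culture as whole cumulus complexes at 39°C with 10% fetal calf serum and 10 ng/ml of epidermal growth factor, and the 5 immature pools were denuded at 0 h, without culture. No genetic change or further treatment was made in either group. Each pool had its own Affymetrix bovine array, and the deposited values are log2 summaries of each probe set, so a difference of 1 is a doubling. A pool holds many cells, and in such bulk samples fewer cells of a type and less RNA per cell cannot be told apart. The paper raises, for its PCR work, the possibility that poly-A tail length affects how well a transcript is amplified. The part of tail length in these array values was not tested.

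Most mitochondrial proteins are made in the cytoplasm and carried into the organelle. The TOM complex receives them at the outer membrane, the TIM23 complex threads those with a presequence into the matrix, and the small TIM chaperones hand carrier proteins to the TIM22 complex for insertion into the inner membrane. The SLC25 carriers are among the largest groups of proteins that use this last route, and they move nucleotides, phosphate, carboxylates, amino acids and cofactors across the membrane, while VDAC channels let small metabolites through the outer membrane. Oocytes hold a very large number of mitochondria and rely on their ATP during meiosis.

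The arrays held clear oocyte RNA and some RNA of follicular cells. All 7 oocyte markers found on the array gave values that varied between arrays, while none of 6 blood cell markers did. A value that does not vary does not tell an absent transcript from an unchanged one. The mean over the oocyte markers ran from 10.18 to 11.60 on the IVM arrays and from 12.87 to 13.41 on the immature arrays, and 5 of the 7 had a negative difference, with a median of -3.15. *NLRP5* (difference -4.03, adjusted p = 4.79e-05) and *ZP3* (-3.78, adjusted p = 6.49e-05) fell, *GDF9* had -4.42 (adjusted p = 3.09e-04), and *BMP15* and *KPNA7* had 0.19 and 0.37. The mean log2 value over 11 cumulus and granulosa markers ran from 8.69 to 10.73 on the IVM arrays and from 7.36 to 9.32 on the immature arrays. Of these 11 markers 8 had a negative difference and 3 a positive one, with a median of -0.53, and the 3 were the cumulus expansion genes *TNFAIP6* (10.86), *PTX3* (6.38) and *HAS2* (1.40). Over 7 other somatic markers it ran from 8.48 to 11.10 on the IVM arrays and from 6.24 to 8.20 on the immature arrays, and 6 of the 7 had a positive difference. Among the 6, *COL3A1* was nearly flat (0.009), and the negative difference was that of *VIM* (-2.51). Poly-A control transcripts lay higher on the IVM arrays by 0.94 (p = 0.00794 in a two-sided exact permutation test, and a design of 5 against 5 gives no smaller one), and hybridization controls were at 9.38 to 9.73 on immature replicates 1, 2 and 3 against 10.75 to 10.85 on immature replicates 4 and 5. Fits centred on the poly-A controls, and fits with only immature replicates 4 and 5, are given below. What the marker and control levels contribute to the results that follow was not tested beyond these fits.

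A set of import and carrier transcripts was lower after maturation, and no member was higher at the strict threshold. With limma and a threshold of 0.0001 on the adjusted p, which is the false discovery rate of the study's methods, 12 of the 74 probe sets fell, which is 16.2%, where 4.81% of all probe sets tested did. No member rose at that threshold, where 0.974% of all probe sets did. Counted only over probe sets whose values varied between arrays, 12 of 52 members fell, or 23.1%, against 12.1% of all such probe sets. The oocyte markers lay lower on the IVM arrays along with these members, with a median difference of -3.15 over 7 genes, and their part in these falls was not tested. The shares above were not matched for level. The varying members had median levels of 9.47 in immature and 8.65 in IVM oocytes. Over all varying probe sets these medians were 8.61 and 8.51. By family, 6 of 31 import probe sets fell (*TIMM23*, *TIMM9*, *TIMM17B*, *TOMM34* and 2 of *TOMM70*), 1 of 4 channel probe sets (*VDAC3*) and 5 of 39 carrier probe sets (*SLC25A26*, *SLC25A17*, *SLC25A28*, *SLC25A1* and *SLC25A14*). At an adjusted p under 0.05 the members went in both directions: of the 52 members whose values varied between arrays, 25 were lower, or 48.1%, against 31.7% of all varying probe sets, and 14 were higher, or 26.9%, against 34.0% of all varying probe sets. When days of collection were blocked and every probe set was kept, limma called 0 of all 24016 probe sets (smallest adjusted p = 1.76e-04), and so none of the members. The smallest adjusted p of a member in that fit was 2.94e-04, and the highest of the 12 was 0.00594. With this block over only the 9460 probe sets whose values varied, 10 of the 12 passed, the exceptions being *SLC25A28* (adjusted p = 2.01e-04) and *SLC25A14* (adjusted p = 1.14e-04). That filter uses the span over the arrays of both groups, so it is not independent of the difference tested. In that fit 930 of the 9460 probe sets were lower.

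**Figure D1:**
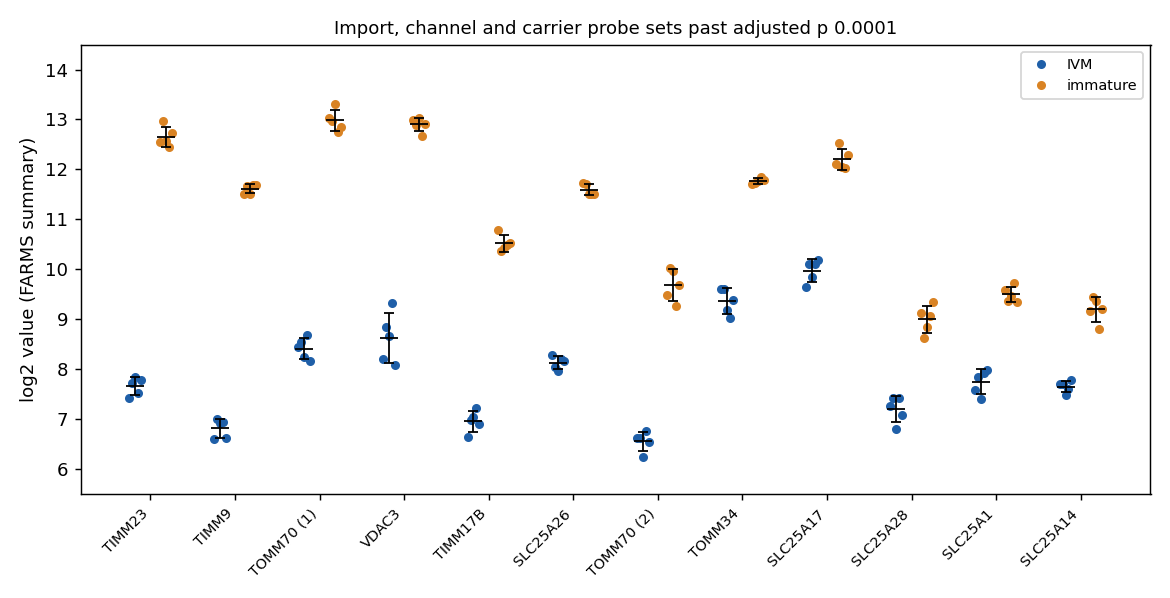
Log2 values of the 12 probe sets that passed an adjusted p of 0.0001, ordered by size of difference, with each array as a point and the mean and SD of 5 arrays as a bar. IVM points lie below all immature points for each of the 12, and the distance between the nearest arrays runs from 1.01 for *SLC25A14* to 4.61 for *TIMM23*.

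Not every member could be followed. On 52 of the 74 probe sets, from 39 genes, the 10 values spanned at least 0.01 on the log2 scale, and the other 22 were nearly the same on every array. Summarised values of this kind are returned where the probes of a set share no variation across arrays. They do not tell an absent transcript from an unchanged one. The flat values ran from 6.13 on a probe set of *DNAJC19* to 9.37 for *SLC25A44*. The 14 genes with no varying probe set were *DNAJC19*, *PMPCA*, *TIMM10*, *TOMM40*, *TOMM5*, *SLC25A21*, *SLC25A25*, *SLC25A29*, *SLC25A34*, *SLC25A37*, *SLC25A40*, *SLC25A42*, *SLC25A44* and *SLC25A48*, so no difference was measurable for these. Over the whole array 9460 of 24016 probe sets varied, of which 12.1% fell and 2.38% rose at the strict threshold. Among the 52 varying members, 24 had all IVM arrays below all immature arrays and 10 had all IVM arrays above, where 29.3% and 27.0% of all varying probe sets did so. The median difference was -0.81 over the 23 varying import probe sets, 0.45 over the 4 of the channels and 0.04 over the 25 of the carriers, beside 0.18 over all varying probe sets. A probe set that varies only because its groups differ also enters these counts, so they are descriptions.

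At the outer membrane, *TOMM70* fell and its partners in the TOM complex moved less or the other way. *TOMM70* encodes the receptor that takes carrier preproteins from cytosolic chaperones. It was at 8.44, 8.55, 8.23, 8.67 and 8.15 on IVM arrays 1 to 5 and at 13.04, 12.97, 13.31, 12.74 and 12.86 on immature arrays 1 to 5. All 5 IVM arrays lay more than 4 log2 units below the lowest immature array, and the gene fell by 4.57 (log2, standard error 0.13, limma adjusted p = 1.26e-07), a 23.8-fold lower level. A second probe set of *TOMM70* had 6.62, 6.63, 6.23, 6.75 and 6.53 on the IVM arrays and 9.47, 10.03, 9.96, 9.27 and 9.68 on the immature arrays. This probe set fell by 3.13 (standard error 0.17, adjusted p = 3.37e-06).

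*TOMM34*, a cytosolic co-chaperone that binds preproteins on the way to the outer membrane, was at 9.61, 9.60, 9.18, 9.02 and 9.39 on IVM arrays 1 to 5 and at 11.70, 11.73, 11.77, 11.85 and 11.80 on immature arrays 1 to 5. It fell by 2.41 (standard error 0.12, adjusted p = 2.12e-06). The immature arrays repeated closely for this gene, with an SD of 0.06, against 0.26 in IVM oocytes. The other 2 probe sets of *TOMM34* had small differences of -0.23 and -0.21 that did not pass.

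Among the core subunits, *TOMM22*, the central receptor of the complex, had a difference of -1.33 (adjusted p = 0.00190) with no overlap of the groups. The small subunits *TOMM6* and *TOMM7*, which steady the complex, had differences of 1.14 (adjusted p = 0.0185) and 0.43 (adjusted p = 0.00816), and their groups overlapped for *TOMM6* and not for *TOMM7*. The positive difference of *TOMM7* became -0.50 and that of *TOMM6* 0.20 when arrays were centred on the poly-A controls. *SAMM50*, the core of the machinery that inserts barrel proteins into the outer membrane, had -0.45 (adjusted p = 0.332), with IVM replicate 4 at 9.12 above all immature arrays. Within arrays, *TOMM70* minus *TOMM22* was between -0.12 and 0.58 in IVM oocytes and between 3.19 and 4.18 in immature oocytes (difference -3.24). It is 1 of 5 partner pairs that were picked after their values were seen, and all 5 are given as descriptions, with no test.

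**Figure D2:**
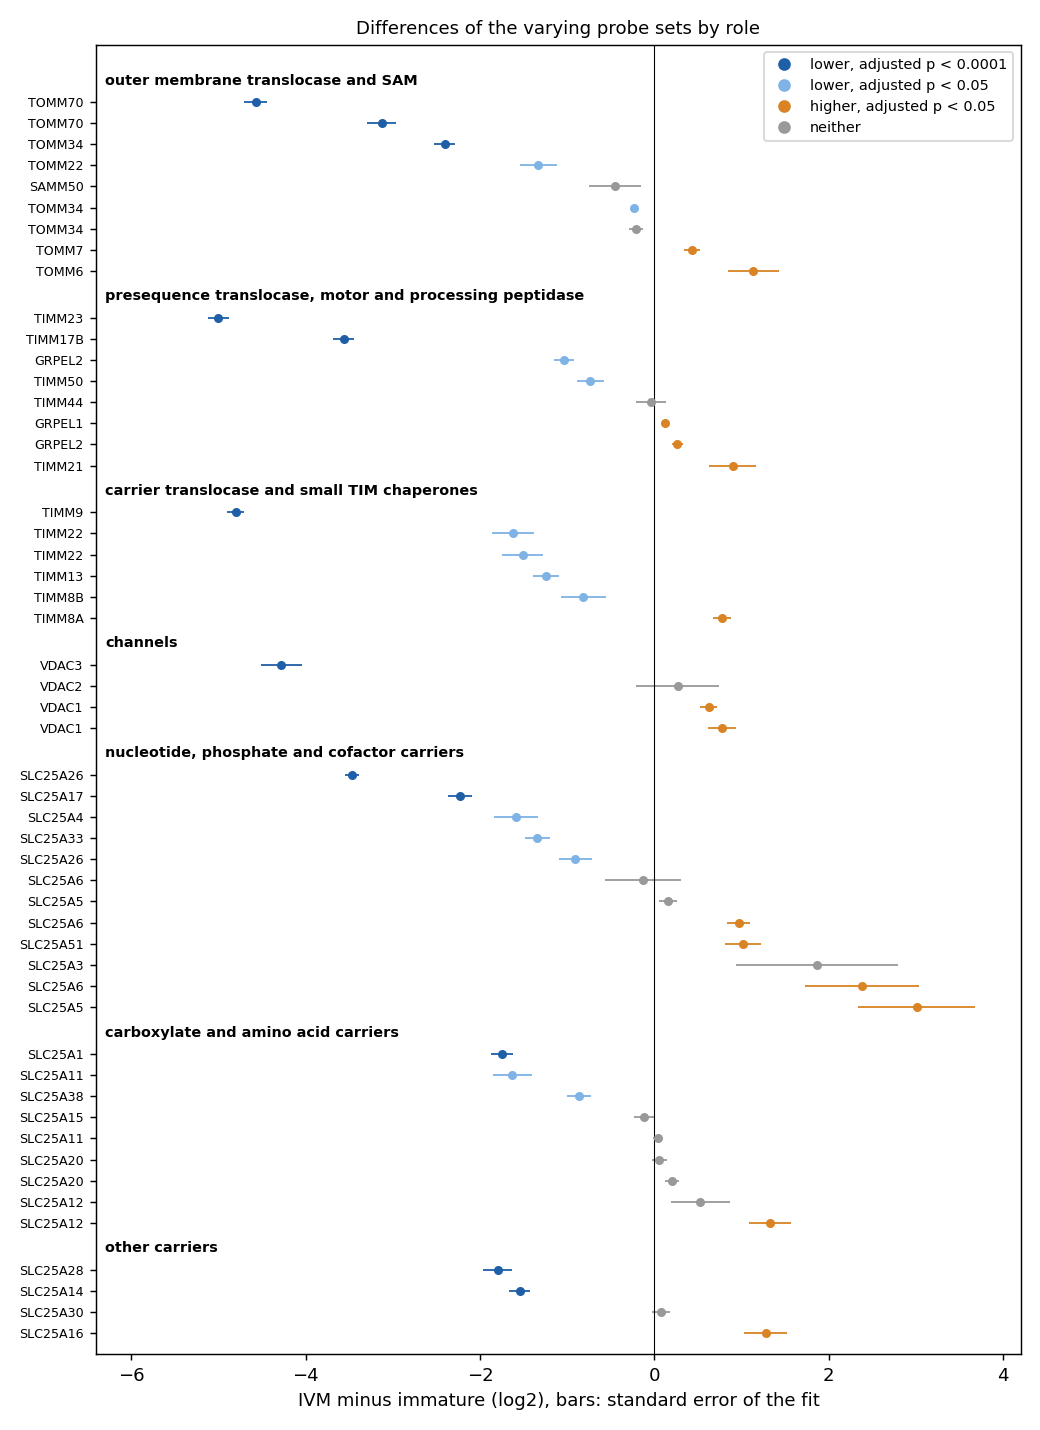
IVM minus immature difference on the log2 scale for the 52 varying probe sets, grouped by role, with the standard error of the limma fit as bars and colours for the adjusted p. Falls of 2 or more are seen in 9 probe sets and rises of 2 or more in 2, and every role except the carboxylate and amino acid carriers and the other carriers holds a fall of 2 or more.

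The channel-forming subunits of the TIM23 complex fell, while the other measured parts of the presequence route moved less. *TIMM23*, which forms the presequence channel of the inner membrane, was at 7.42, 7.72, 7.83, 7.51 and 7.78 on IVM arrays 1 to 5 and at 12.56, 12.97, 12.57, 12.44 and 12.73 on immature arrays 1 to 5. Its fall of 5.00 (standard error 0.12, adjusted p = 6.14e-08 from limma) was the largest of the members and the 35th lowest difference of all 24016 probe sets. *TIMM17B*, which lines the channel beside it, was at 6.65, 6.97, 7.04, 7.22 and 6.89 on the IVM arrays and at 10.80, 10.37, 10.42, 10.48 and 10.54 on the immature arrays. It fell by 3.56 (standard error 0.12, adjusted p = 2.55e-07), again with the groups far apart.

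*TIMM50*, the receptor that passes presequences to the channel, had a difference of -0.73 (adjusted p = 0.00832), and *TIMM21*, which ties the complex to TOM and to the respiratory chain, had 0.90 (adjusted p = 0.0356). The *TIMM21* arrays overlapped, with IVM replicate 4 at 9.41 below 4 of the immature arrays, and its difference was -0.04 after centring on the poly-A controls. *TIMM44*, which anchors the import motor, had -0.04 (adjusted p = 0.981). *TIMM23* minus *TIMM50* within arrays was between -0.66 and 0.18 in IVM oocytes and between 3.58 and 4.48 in immature oocytes (difference -4.27).

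The nucleotide exchange factors of the motor, *GRPEL1* and *GRPEL2*, showed little change or disagreeing probe sets. *GRPEL1* was at 13.03 to 13.21 on the IVM arrays and 12.99 to 13.07 on the immature arrays (difference 0.12, adjusted p = 0.0246). One probe set of *GRPEL2* had 10.06, 9.83, 9.88, 9.76 and 9.93 on IVM arrays 1 to 5 and 9.68, 9.67, 9.68, 9.48 and 9.63 on immature arrays 1 to 5, all IVM arrays above (difference 0.26, adjusted p = 0.0140). Another had 7.31, 6.87, 6.75, 6.71 and 6.90 on the IVM arrays and 7.97, 7.99, 7.91, 7.83 and 8.01 on the immature arrays, all IVM arrays below (difference -1.04, adjusted p = 1.87e-04). Neither passed the strict threshold, and the direction for this gene depends on the probe set.

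On the carrier route, *TIMM9* fell and its relatives moved less. *TIMM9* forms, with *TIMM10*, the main chaperone hexamer of the intermembrane space. It was at 6.60, 7.0, 6.92, 6.94 and 6.62 on IVM arrays 1 to 5 and at 11.51, 11.67, 11.51, 11.69 and 11.69 on immature arrays 1 to 5. It fell by 4.80 (standard error 0.09, adjusted p = 3.98e-08 from limma), 27.9-fold, with the smallest adjusted p of any member. The probe set of *TIMM10* did not vary.

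The related hexamer is built from TIMM8 and TIMM13 proteins. *TIMM13* had a difference of -1.24 (adjusted p = 3.72e-04) and passed in the fit with days blocked over varying probe sets (adjusted p = 7.08e-05). *TIMM8B* had -0.81 (adjusted p = 0.0472) and *TIMM8A* had 0.78 (adjusted p = 8.24e-04), with all IVM arrays of *TIMM8A*, at 10.85 to 11.42, above the immature arrays, at 10.36 to 10.57. The call of *TIMM8A* passed when IVM replicate 3, its lowest IVM array, was left out (adjusted p = 3.37e-05), and its direction turned to -0.16 after centring on the poly-A controls. *TIMM22*, the channel of the carrier translocase, had -1.62 (adjusted p = 0.00133) and -1.51 (adjusted p = 0.00160) on its 2 probe sets. Neither of these passed the strict threshold, and on both the groups did not overlap. *TIMM9* minus *TIMM13* within arrays lay between -3.23 and -2.39 in IVM oocytes and between 0.369 and 0.997 in immature oocytes (difference -3.56).

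The 3 channels of the outer membrane went different ways. *VDAC3* was at 8.21, 8.84, 8.66, 9.33 and 8.09 on IVM arrays 1 to 5 and at 12.99, 12.89, 13.03, 12.68 and 12.92 on immature arrays 1 to 5. It fell by 4.28 (standard error 0.23, adjusted p = 3.59e-06 from limma), 19.4-fold, and the IVM arrays were spread more widely (SD 0.50) than the immature arrays (SD 0.14). *VDAC1*, the isoform best known for metabolite exchange, was at 11.85, 11.74, 11.58, 11.53 and 11.89 on the IVM arrays and at 11.01, 10.95, 11.03, 11.28 and 11.21 on the immature arrays. All its IVM arrays were the higher ones, but the difference of 0.62 (adjusted p = 0.00133) did not pass, and neither did 0.78 (adjusted p = 0.00674) on its other probe set. Both differences of *VDAC1* were below 0 after centring on the poly-A controls (-0.31 and -0.16).

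*VDAC2*, an isoform that also holds the apoptosis regulator BAK at the membrane, was at 9.39 to 11.54 on the IVM arrays and 8.99 to 10.74 on the immature arrays, which overlap (difference 0.27, adjusted p = 0.759). *VDAC3* minus *VDAC1* within arrays was between -3.80 and -2.20 in IVM oocytes and between 1.40 and 1.99 in immature oocytes (difference -4.90). A constant shift of an array cancels in this difference, and quantile normalization is not such a shift.

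The largest falls of the SLC25 family were those of *SLC25A26* and *SLC25A17*, which carry cofactors. Other carriers of cofactors, *SLC25A51* (1.02) and *SLC25A16* (1.28), had positive differences. *SLC25A26* brings S-adenosylmethionine, the methyl donor, into mitochondria. It was at 8.29, 8.04, 7.95, 8.20 and 8.16 on IVM arrays 1 to 5 and at 11.73, 11.71, 11.51, 11.51 and 11.51 on immature arrays 1 to 5. It fell by 3.47 (standard error 0.08, adjusted p = 5.82e-08 from limma), 11.1-fold. Another probe set of *SLC25A26* had a difference of -0.90 (adjusted p = 0.00790), in the same direction with no overlap, and the third did not vary.

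*SLC25A17*, a member of the family that works in peroxisomes, where it carries coenzyme A and related nucleotides, was at 9.64, 10.10, 9.83, 10.11 and 10.18 on the IVM arrays and at 12.12, 12.52, 12.06, 12.02 and 12.28 on the immature arrays. It fell by 2.23 (standard error 0.14, adjusted p = 7.01e-06). *SLC25A33*, a carrier of pyrimidine nucleotides, had -1.34 (adjusted p = 1.93e-04) with no overlap, and did not pass. *SLC25A51*, the mitochondrial carrier of NAD, had 1.02 (adjusted p = 0.00548), also with no overlap, and 0.08 after centring on the poly-A controls.

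The adenine nucleotide translocases, which exchange ADP for ATP, and the phosphate carrier *SLC25A3* had no probe set that passed. *SLC25A4* was at 8.38, 9.15, 8.38, 9.28 and 8.04 on IVM arrays 1 to 5 and at 10.18, 9.97, 10.30, 10.38 and 10.36 on immature arrays 1 to 5. All IVM arrays of *SLC25A4* were the lower ones (difference -1.59, adjusted p = 0.00166). *SLC25A5* on one probe set was level, at 10.97 to 11.19 on the IVM arrays and 10.62 to 11.15 on the immature arrays (difference 0.16, adjusted p = 0.301).

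On its other probe set *SLC25A5* was at 8.18, 9.45, 9.46, 11.96 and 8.70 on IVM arrays 1 to 5 and at 6.42, 6.23, 6.13, 6.88 and 7.06 on immature arrays 1 to 5. The groups did not overlap there, and IVM replicate 4 stood more than 2 log2 units above the other arrays (difference 3.01, standard error 0.67, adjusted p = 0.00962). *SLC25A6* likewise had probe sets with differences of 0.97 (adjusted p = 6.42e-04), 2.38 (adjusted p = 0.0249) and -0.13 (adjusted p = 0.922). Of these the first, with IVM arrays at 9.66 to 10.19 above immature arrays at 8.82 to 9.33, passed when only varying probe sets were tested (adjusted p = 9.39e-05), and it came to 0.03 after centring on the poly-A controls. *SLC25A3* was at 8.90 to 12.26 on the IVM arrays and 6.35 to 10.22 on the immature arrays, with overlap (difference 1.86, adjusted p = 0.186).

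IVM replicate 4 was the highest IVM array on the *SLC25A3* probe set, on the variable probe set of *SLC25A5* and on 2 of the 3 of *SLC25A6*. This was not particular to them. It was the highest IVM array for members with a negative difference too, such as *SLC25A4* (9.28) and *VDAC3* (9.33). For others, such as *TIMM21* (9.41) and *TOMM6* (10.30), it was the lowest. It also had the highest mean of the cumulus and granulosa markers (10.73) and of the other somatic markers (11.10) of any array, and the lowest mean of the 7 oocyte markers (10.18). Immature replicate 2 was the lowest immature array for *SLC25A3* (6.35) and for 2 probe sets of *SLC25A6*, and it had the lowest mean of the cumulus and granulosa markers (7.36). The part of somatic RNA in these differences was not tested. *SLC25A4*, *SLC25A5* and *SLC25A6* are close relatives, so signal of one may reach the probes of another, and their values are uncertain for that reason. *SLC25A4* minus the level probe set of *SLC25A5* within arrays was between -2.98 and -1.86 in IVM oocytes and between -0.97 and -0.50 in immature oocytes (difference -1.75).

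**Figure D3:**
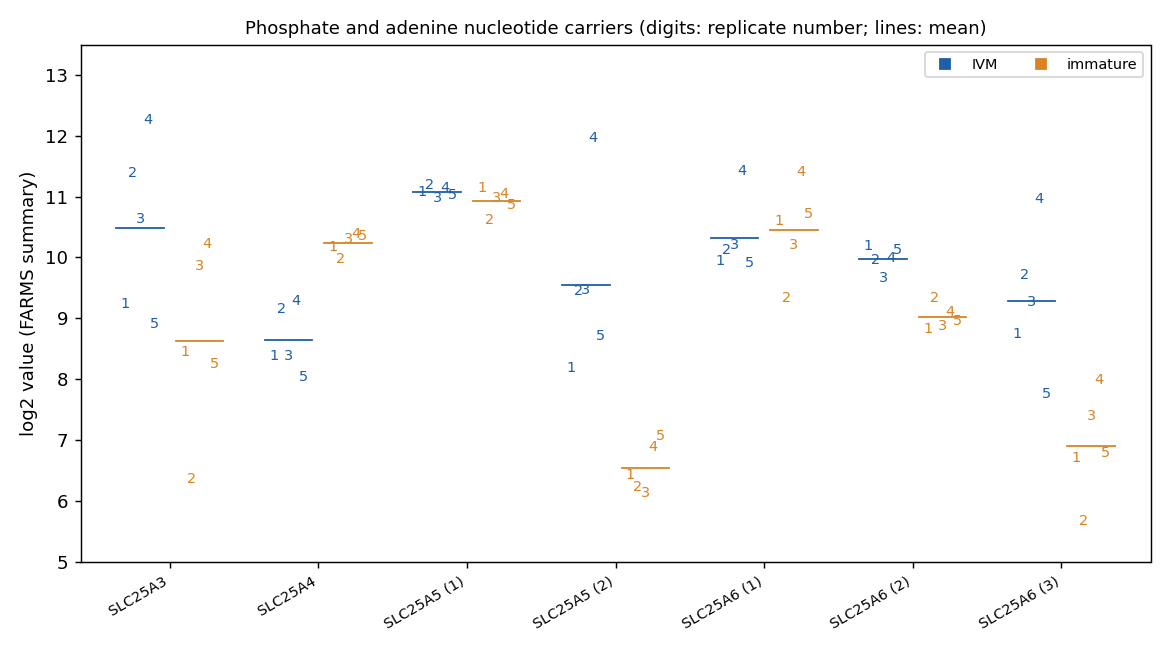
Log2 values of the varying probe sets of the phosphate carrier *SLC25A3* and the adenine nucleotide translocases *SLC25A4*, *SLC25A5* and *SLC25A6*, with the replicate number of each array printed at its value and the group mean as a line. The first probe set of *SLC25A5* lies near 11 in both groups, while on its second IVM replicate 4 reaches 11.96 and the immature arrays stay at 6.13 to 7.06.

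Among carriers of carboxylates and amino acids, 1 of 14 probe sets passed (7.14%, near the 4.81% of all probe sets that fell). *SLC25A1*, which exports citrate for lipid synthesis, was at 7.59, 7.84, 7.40, 7.93 and 7.98 on IVM arrays 1 to 5 and at 9.58, 9.37, 9.47, 9.71 and 9.34 on immature arrays 1 to 5. It fell by 1.75 (standard error 0.13, adjusted p = 2.21e-05 from limma), and without any 1 of the 5 immature arrays, or without IVM replicate 1 or 2, its adjusted p no longer passed (highest 1.56e-04).

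*SLC25A11*, the exchanger of oxoglutarate and malate, had -1.63 (adjusted p = 7.03e-04) on one probe set and 0.04 (adjusted p = 0.646) on another. *SLC25A38*, the glycine carrier needed for heme synthesis, had -0.86 (adjusted p = 0.00184). *SLC25A12*, a calcium-regulated carrier of aspartate and glutamate, had the largest positive difference of this group, 1.33 (adjusted p = 0.00341), and 0.53 (adjusted p = 0.303) on a probe set where the groups overlapped. *SLC25A15*, the ornithine carrier, and *SLC25A20*, which carries acylcarnitines, had differences between -0.12 and 0.20 with overlapping arrays.

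Of the remaining carriers, *SLC25A28*, one of the iron importers of mitochondria, was at 7.26, 7.42, 6.81, 7.41 and 7.09 on IVM arrays 1 to 5 and at 9.11, 8.61, 8.85, 9.05 and 9.34 on immature arrays 1 to 5. It fell by 1.80 (standard error 0.17, adjusted p = 8.30e-05 from limma), and this call ended without any 1 of the 10 arrays (adjusted p from 1.33e-04 to 4.76e-04). *SLC25A14*, related to the uncoupling proteins, was at 7.69, 7.70, 7.48, 7.59 and 7.79 on the IVM arrays and at 9.15, 9.45, 9.37, 8.80 and 9.21 on the immature arrays. It fell by 1.55 (standard error 0.12, adjusted p = 3.28e-05), and this call held without immature replicate 4, its lowest immature array, and ended without any other 1 array (highest adjusted p = 2.22e-04). *SLC25A16*, a carrier linked to coenzyme A, had 1.28 (adjusted p = 0.00482) with all IVM arrays above. *SLC25A30*, another relative of the uncoupling proteins, had 0.07 (adjusted p = 0.674).

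Where a gene had several varying probe sets, they mostly ran one way. There were 11 such genes, and for 8 of them all probe sets had the same sign. The exceptions were *GRPEL2*, *SLC25A6* and *SLC25A11*. IVM arrays 1 to 5 were also set against only immature replicates 4 and 5, which share the level of the hybridization controls with the IVM arrays. The differences of the 12 probe sets that fell were then between -4.93 for *TIMM23* and -1.35 for *SLC25A14*. None of the 12 passed at 2 immature arrays (smallest adjusted p = 2.01e-04 from limma, for *TIMM9* and *SLC25A26*), where only 4 of all 24016 probe sets did.

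Other genes of protein import, folding and cristae were taken from a list of 44, of which 33 were on the array and 25 had a varying probe set. By the probe set with the highest mean, 4 of the 25 fell (near the 12.1% of all varying probe sets), none rose and 21 did not pass, and the median difference was -1.36. At an adjusted p under 0.05 in the same limma fit, 19 of the 25 were lower and 3 were higher. Of all varying probe sets 31.7% were lower and 34.0% higher at that threshold. *OXA1L*, the insertase of the inner membrane, was at 7.56, 7.93, 7.59, 8.58 and 7.23 on IVM arrays 1 to 5 and at 11.23, 11.18, 11.34, 11.30 and 11.30 on immature arrays 1 to 5. It fell by 3.49 (adjusted p = 1.05e-05 from limma). The other 3 belong to or bind the MICOS complex, which shapes the cristae: *APOO* (difference -2.76, adjusted p = 4.88e-07), *CHCHD3* (-2.68, adjusted p = 3.68e-06) and *DNAJC11* (-1.78, adjusted p = 3.15e-06).

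The 2 largest positive differences of that list were those of *APOOL*, another MICOS subunit (0.86, adjusted p = 0.0228), and *PARL*, a rhomboid protease (0.77, adjusted p = 0.00322), and neither passed. Both would be below 0 with arrays centred on the poly-A controls, since that centring lowers every difference by 0.94. *HSPA9*, the matrix chaperone that pulls proteins through TIM23, had -1.70 (adjusted p = 0.00192), and *CHCHD4*, the receptor that folds small TIM proteins in the intermembrane space, had 0.18 (adjusted p = 0.373).

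**Figure D4:**
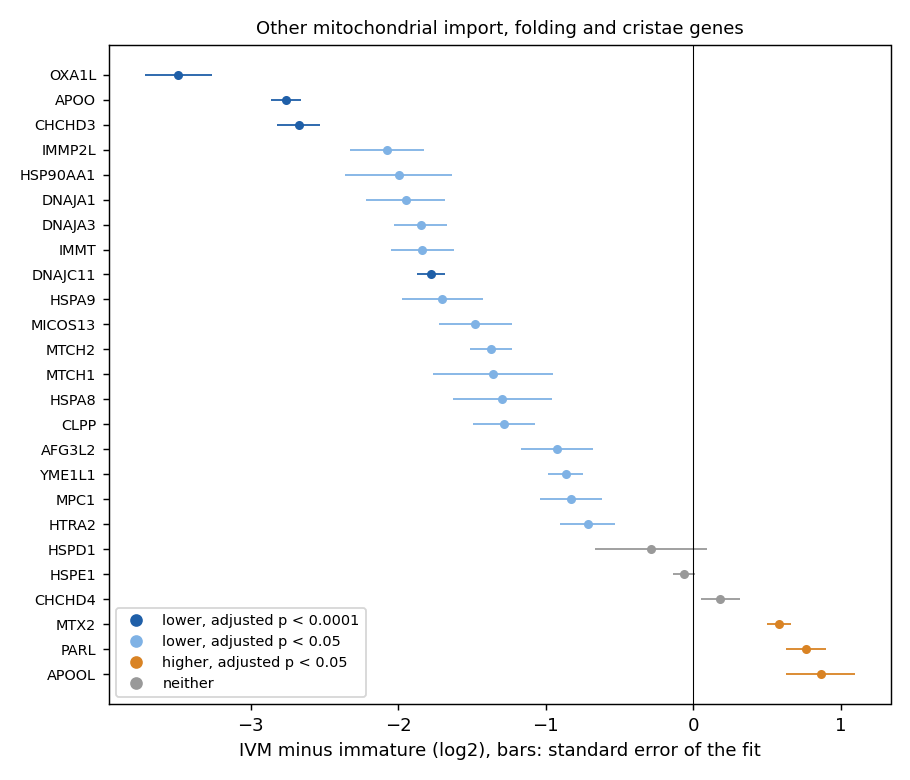
IVM minus immature difference on the log2 scale of the 25 other import, folding and cristae genes with a varying probe set, with the standard error of the limma fit as bars. Of these, 21 lie below 0 and 4 above, and the 4 dark points passed an adjusted p of 0.0001.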

How the data were processed

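Pools of IVM and immature bovine oocytes, 5 of each, were measured on 10 Affymetrix bovine arrays after 2 rounds of linear amplification of 100 ng of total RNA. GCOS was used by the authors for quantification and FARMS for probe summaries, with quantile normalization, and what they deposited is on the log2 scale (versions not given in the sources used here). Quantile normalization sets the arrays to one distribution, and differences are therefore relative to it. All 10 columns were used, and 112 control probe sets were set apart.

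Symbols came from the platform annotation, updated through gene identifiers of the ARS-UCD2.0 RefSeq table, and 13292 of 24016 probe sets had 1 symbol. IVM was compared with immature with limma 3.58.1 (lmFit, eBayes) under R 4.3.3 over the 24016 probe sets, with Benjamini-Hochberg adjustment and a threshold of 0.0001. The SAM test of the paper's methods was not run. The prior of this fit was weak (0.103 degrees of freedom), and 14556 of the probe sets hardly varied. Simulated data of this comparison held 24016 probe sets, with log2 changes of 1 in 100 of them and of 2 in another 100. Recovered were 7 of the smaller and 45 of the larger changes, with 0 false calls. At the same threshold the real data gave 1155 probe sets lower and 234 higher. Benjamini-Hochberg adjustment is stricter where fewer probe sets differ, so these rates do not give the sensitivity of the real comparison. Precision is limited by how many arrays there are.

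Members given in full are those past the threshold, the one with the largest difference in each role and those whose probe sets disagree in direction at an adjusted p under 0.05. Other members named, *CHCHD3*, *DNAJC11*, *HSPA9* and *CHCHD4*, and the 5 partner pairs, were chosen after their values were seen. The members and lists were chosen with earlier results of these data known. Of the 22 members that did not vary, 2 (*TIMM10* and a probe set of *SLC25A33*) had an adjusted p under 0.05 from differences under 0.01 and were not counted.

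By the paper's methods a replicate is a day of oocyte collection, so equal numbers were taken as 1 day. Across the varying probe sets, the deviations of the IVM and immature array with the same number from their group means correlated with r = 0.143, -0.347, 0.0872, 0.672 and 0.359 for replicates 1 to 5. The highest r of each IVM array with an immature array of another number was 0.561, 0.484, 0.209, 0.357 and 0.628. This exceeded the same-number value for every replicate except 4. The blocked fits therefore rest on the numbering and not on these correlations. Cumulus complexes of a collection were divided between both groups, per the labels. Figures were made with Python 3.11.15 and matplotlib 3.10.9.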

Additional observations from a re-analysis of the deposited data

Results flagged for a closer look

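On 3 of the 104 groups of 5 arrays examined, 1 array lay far from the other 4, with a gap above the critical value of Dixon's test, where chance gives about 1 group in 20. On one probe set of *SLC25A6*, IVM replicate 4 was at 11.43 against a group median of 10.12, and the gap was 0.801 of the whole range. On one probe set of *SLC25A20*, IVM replicate 4 was at 9.37 against a median of 9.75 (0.774 of the range). On the probe set of *GRPEL2* with the positive difference, immature replicate 4 was at 9.48 against a median of 9.67 (0.744 of the range).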

How the results depend on the processing

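The counts at the strict threshold depended on the fit. Of the import probe sets 6 fell, and of the carrier probe sets 5. With an adjusted p under 0.05 in the same fit, 14 import and 10 carrier probe sets were lower and 6 of each were higher. With the replicate block over all probe sets 0 of either were lower, where 0 of all 24016 probe sets were. With it over varying probe sets 7 import and 3 carrier probe sets were lower, where 930 of all 9460 varying probe sets were. Immature replicates 4 and 5 against all IVM arrays gave 0 of either, where only 4 of all 24016 probe sets were lower. Centring on the poly-A controls, which lowers the median of all probe sets by 0.94, gave 17 varying import and 14 varying carrier probe sets lower and 0 higher, where 77.7% of all probe sets were lower, as were another 8 import and 14 carrier probe sets that do not vary, and 14 varying members with a positive difference turned negative. Testing only varying probe sets gave 1 carrier probe set higher, where 685 of all 9460 were. Leaving out 1 array gave 6 to 7 import probe sets lower and 0 to 1 higher, and 2 to 3 carrier probe sets lower and 0 higher. Of the 12 probe sets that fell, 9 passed without any 1 array. The trend prior and the filter on dim probe sets kept the side of the threshold of all 12 genes given in full. *GRPEL2* reversed to -0.67 with poly-A centring and to -1.04 on its most variable probe set. The cause was not tested.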
